A study of Mus musculus with 2 samples.

Results

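The regions described here are stretches of 1000 to under 4000 bp that carried the histone mark H3K36me2 in wild-type regulatory T (Treg) cells and that shared at least 1 bp with a marked region in Treg cells of Nsd2 conditional knock out mice. They were chosen from the WT list of called regions on chromosomes 1 to 19 and X by their length and by that overlap, and the overlapping KO regions supply the paired values. There were 5240 of them among 54422 WT regions, which is 9.63% of the list and 68.0% of the 7709 WT regions in that range of length. Their KO partners were 5574 of 39645 KO regions. The study profiled the mark in Treg cells from spleen on the C57BL/6 background, with 1 library from Nsd2 Treg conditional knock out mice (KO) and 1 from wild type mice (WT). The sources used here do not name the driver of the deletion, the antibody, an input library, the age or sex of the animals, or whether animals were pooled. With 1 library per genotype, no difference has a replicate check, no p-value is given, and every statement of lower or higher is a statement of size about these 2 libraries.

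H3K36me2 is histone H3 dimethylated on lysine 36, a mark found over broad stretches of gene bodies and of the intervals between genes. NSD2 is one of the methyltransferases that place it, beside NSD1, NSD3 and ASH1L, and the mark is known to hinder the Polycomb complex that methylates lysine 27. Treg cells are CD4 T cells that carry the transcription factor Foxp3 and restrain immune responses.

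The KO library held 14789700 tags and the WT library 17158154, and tag counts were scaled by the authors to 10000000 per library. The tag threshold of the caller, per the file headers, was 12 tags in KO and 13 tags in WT, or 8.11 and 7.58 tags after scaling. It held for the score of a region, whose lowest values are 12 and 13, but not for the tag count of the whole region, which went down to 6.42 scaled tags among the KO partners. In the marker lists, 6 of 8 T cell genes and 3 of 6 Treg genes held one of the 5240 regions, and Foxp3, Il2ra and Ikzf2 were those of the Treg list. All regions together over marker genes held 2003 KO tags and 1840 WT tags for T cells, and 814 KO tags and 808 WT tags for Treg cells. The B cell markers summed to 77.8 KO tags and 144 WT tags, and the myeloid markers to 153 KO tags and 99.95 WT tags. Markers of NK and CD8 cells summed to 0 KO tags and 41.4 WT tags, those of erythroid cells to 0 KO tags and 12.8 WT tags, and Ms4a1, Lyz2 and Cebpa had no region in either list. Whether other cells had a part in any difference was not tested.

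Some shared regions lie across the start of a gene, and 5 such promoters of immune genes are shown because a shared WT region held the whole window. They are the genes of the lists whose covering region had the highest tags per kb, out of 24 list genes with a whole window inside a shared region. The KO partner was not required to hold the window. Each sequence is a RefSeq window of GRCm38.p6 from 250 bases before to 50 bases after the start, given 5′ to 3′ on the strand of the gene. Capitals mark matches on either strand to TGTGGT (Runx), TGTTTAC (forkhead) or GGGCGG (GC box), and other motifs searched were CCGGAAG (Ets), TGANTCA (AP-1), CACGTG (E box) and, for a promoter element bound in transcription initiation, TATAAA.
Tigit promoter, chr16:43664135-43664434, minus strand: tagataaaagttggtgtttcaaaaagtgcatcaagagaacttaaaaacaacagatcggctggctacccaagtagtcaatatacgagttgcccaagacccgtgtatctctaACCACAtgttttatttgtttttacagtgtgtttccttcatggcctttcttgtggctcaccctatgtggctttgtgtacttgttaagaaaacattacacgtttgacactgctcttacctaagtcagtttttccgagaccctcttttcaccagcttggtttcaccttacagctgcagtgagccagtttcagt
Klf2 promoter, chr8:72318812-72319111, plus strand: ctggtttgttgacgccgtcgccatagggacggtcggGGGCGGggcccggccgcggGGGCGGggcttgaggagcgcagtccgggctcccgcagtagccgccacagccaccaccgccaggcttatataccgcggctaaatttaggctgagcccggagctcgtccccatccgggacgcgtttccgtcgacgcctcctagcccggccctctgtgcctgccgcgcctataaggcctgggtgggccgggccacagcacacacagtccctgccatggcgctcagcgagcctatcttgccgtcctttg
Nfatc3 promoter, chr8:106058568-106058867, plus strand: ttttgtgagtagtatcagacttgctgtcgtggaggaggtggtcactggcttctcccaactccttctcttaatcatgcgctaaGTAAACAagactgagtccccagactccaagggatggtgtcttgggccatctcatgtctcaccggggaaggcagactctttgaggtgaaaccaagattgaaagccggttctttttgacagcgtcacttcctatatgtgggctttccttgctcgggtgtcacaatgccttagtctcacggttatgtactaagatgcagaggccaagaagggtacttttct
Cblb promoter, chr16:52031299-52031598, plus strand: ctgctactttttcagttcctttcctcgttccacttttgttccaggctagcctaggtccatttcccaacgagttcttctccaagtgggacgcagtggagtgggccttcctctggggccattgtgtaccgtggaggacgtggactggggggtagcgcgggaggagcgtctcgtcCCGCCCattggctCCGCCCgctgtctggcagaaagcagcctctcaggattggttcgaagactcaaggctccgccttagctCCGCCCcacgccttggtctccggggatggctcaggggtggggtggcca
Birc3 promoter, chr9:7873121-7873420, minus strand: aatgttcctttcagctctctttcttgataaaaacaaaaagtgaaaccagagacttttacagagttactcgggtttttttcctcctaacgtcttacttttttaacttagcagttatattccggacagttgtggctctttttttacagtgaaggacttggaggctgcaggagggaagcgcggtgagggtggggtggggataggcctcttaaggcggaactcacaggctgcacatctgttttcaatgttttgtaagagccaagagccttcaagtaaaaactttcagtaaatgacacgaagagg

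Tigit encodes an inhibitory receptor of Treg and exhausted T cells, and its promoter lay in a region with 36.2 KO tags and 41.1 WT tags. Klf2, a transcription factor of quiescent and recirculating T cells, had 19.9 KO tags and 27.1 WT tags in 1066 bp of KO region and 1059 bp of WT region. Nfatc3, a calcium-controlled transcription factor, had 34.5 KO tags and 30.3 WT tags, and Cblb, a ubiquitin ligase that limits T cell activation, had 23.3 KO tags and 19.8 WT tags. These 4 promoter regions were within 1.5-fold of one another in the 2 libraries. Birc3, an inhibitor of apoptosis downstream of NF-kB, had 116.6 KO tags in a KO region of 5930 bp, against 60.9 WT tags in 2948 bp.

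Among all 21044 promoter windows of the table, 303 windows of 266 genes lay whole inside a shared mid-length region. The GC box was present in 53.8% of these 303 windows (95% interval 48.0 to 59.5), against 46.7% of all windows. The Runx motif was in 17.5% (13.4 to 22.2) against 14.8%, and the Ets motif in 9.90% (6.78 to 13.8) against 11.7%. AP-1 matches were in 3.96% (2.06 to 6.82) against 7.04%, and TATAAA in 7.92% (5.14 to 11.6) against 12.7%. The forkhead motif, at 2.64% against 3.03%, and the E box, at 7.59% against 7.91%, lay closest to the share in all windows. A match is a description of letters only.

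A second kind of feature inside these regions was microRNA genes, and 22 of the 1005 hairpins in the RefSeq table lay inside one. The cluster of Mir23a, Mir27a and Mir24-2 on chromosome 8 is shown, chosen after its values were seen, because its 3 hairpins sat in 1 shared region that was longer in KO. Mir3074-2, on the opposite strand over Mir24-2, lay in the same region and is not shown. Capitals mark the seed, bases 2 to 8 of the mature RNA.
mmu-miR-23a-3p, chr8:84208563-84208583, plus strand: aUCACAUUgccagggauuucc
mmu-miR-27a-3p, chr8:84208727-84208747, plus strand: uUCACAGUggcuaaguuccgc
mmu-miR-24-3p, chr8:84208875-84208896, plus strand: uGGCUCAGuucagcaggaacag
The 3 seeds differ from one another. The region over the cluster, chr8:84207575-84209307, had 44.3 KO tags in 2743 bp and 25.6 WT tags in 1732 bp, a KO over WT ratio of 1.73, while its density was 16.2 KO tags per kb and 14.8 WT tags per kb.

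The shared mid-length regions were modest in length and signal. Their WT length had a median of 1560 bp (range 1000 to 3995), and the summed KO partner length a median of 1150 bp (500 to 19240). The partner tags had a median of 19.9 in KO (6.42 to 579), against 24.8 in WT (14.3 to 514). Per kb of called region the order was the other way, with a median of 17.0 tags in KO and 15.8 tags in WT. The score, which the authors gave in unscaled tags per peak, had a median of 13.5 in KO and 14.5 in WT, close to the calling thresholds of 12 and 13. Together the regions held 1.40% of the KO library in 7.81 Mb and 1.51% of the WT library in 9.24 Mb, and they made up 25.7% of KO tags and 22.3% of WT tags in called regions.

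WT regions of the same length with no KO partner, 2469 in number, were shorter and weaker than the shared regions, with a median of 1304 bp and 19.2 WT tags. The share of mid-length WT regions with a KO partner climbed with WT signal, from 43.6% (95% interval 41.1 to 46.1) in the lowest of 5 equal groups by tags, through 67.5% in the middle group, to 94.0% (92.7 to 95.2) in the highest. By length, that share was 56.3% in the shortest of 5 equal groups and 90.1% in the longest. As 1 shared bp was enough, a longer region can meet a KO region more easily, and longer regions hold more tags. By tags per kb, the share was 50.5% in the lowest of 5 equal groups and 89.0% in the highest. Shares have exact Clopper-Pearson intervals, which cover counting error over regions only.

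At the lower length limit, the 3 regions just inside, all of 1000 bp, had 14.5, 36.8 and 37.9 KO tags, against 19.8, 17.5 and 15.4 WT tags. The 3 just outside, of 998 and 999 bp, had 17.2, 9.80 and 9.13 KO tags, against 15.2, 16.6 and 15.2 WT tags. At the upper limit, the 3 just inside, of 3979 to 3995 bp, had 85.2, 59.8 and 397.9 KO tags, against 66.1, 67.3 and 70.5 WT tags. The 3 just outside, of 4000 to 4005 bp, had 81.5, 137.9 and 56.5 KO tags, against 71.1, 79.6 and 65.3 WT tags. Regions on either side of both limits overlapped in signal.

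A WT region and its KO partner rarely had the same borders. Of the 5240 regions, 4774 (91.1%) met 1 KO region, 457 met 2 and 9 met 3, and 568 (10.8%) met a KO region that also spanned other WT regions. The pairing was 1 to 1 for 4282. Within these pairs the KO region lay inside the WT region in 1700 (39.7%), the WT region lay inside the KO region in 411 (9.60%), and the borders were shifted in 2171 (50.7%). The median KO border fell short of the WT border by 159 bp on the left and by 165 bp on the right, a like size at both ends. The rule set a length window on WT regions alone, so nesting and borders describe the choice as well as the genotypes. The median log2 length ratio was 0.25 for regions chosen by KO length and -0.13 for pairs of 1 to 1 chosen on mean length. Borders under those choices were not compared. Toward the start of the gene the median shortfall was 186 bp and toward its end 158.5 bp, over 2092 pairs in genes of known strand. Over all members, the KO partner was a single 500 bp peak, the smallest call possible, in 924 (17.6%), was under 1000 bp in 2275 (43.4%) and was 4000 bp or longer in 311 (5.94%). KO regions covered 60.6% of the members' base pairs.

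Of the 9 members that met 3 KO regions, 3 lay in Rnf43, Hnrnpf and Septin9. In Rnf43, a ubiquitin ligase gene of Wnt signalling, 3 KO regions with 39.9 tags in all lay along a WT region of 57.4 tags. In Hnrnpf, encoding an RNA-binding splicing factor, they held 50.3 KO tags against 54.2 WT tags, and in Septin9, of the cytoskeletal septins, 47.3 KO tags against 51.6 WT tags. In each, a WT stretch of over 3000 bp was matched by separate KO calls of nearly the same density.

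**Figure D1:**
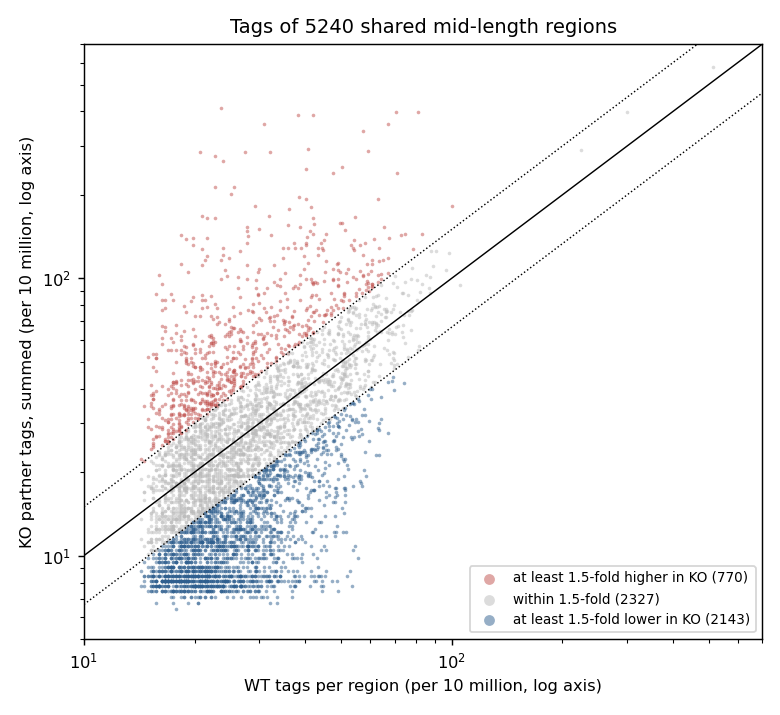
Scaled tags of each of the 5240 shared mid-length regions, with the summed KO partner on the vertical axis and the WT region on the horizontal axis, both logarithmic. The solid line marks equal tags and the dotted lines 1.5-fold, and a band of KO partners near the calling threshold lies along the bottom, where KO partners are single 500 bp peaks.

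Paired tag counts were lower in KO more often than higher. The KO over WT ratio of tags had a median log2 of -0.37 (95% order-statistic interval -0.39 to -0.33). It was at least 1.5-fold lower in 2143 members (40.9%, against 18.7 percent of all 16200 shared WT regions) and at least 1.5-fold higher in 770 (14.7%, against 23.7 percent). The rule used WT length and KO overlap, so these shares describe the choice as well as the genotypes. Length followed the tags, with a median log2 ratio of -0.47, at least 1.5-fold shorter in 45.9% of members (21.3 percent of all shared WT regions) and longer in 13.2% (20.9 percent). The density of tags within called sequence did not follow: its median log2 ratio was 0.11, with 8 members at least 1.5-fold lower in KO (0.204 percent of all shared WT regions) and 98 higher (1.17 percent). The tag threshold applied to the score of a region and not to its density, which went down to 11.8 tags per kb in KO and 10.8 in WT. After scaling, the threshold was higher in KO (8.11 tags) than in WT (7.58 tags). Every call had a score at or above its threshold, so density within calls is not free of the calling. How much of the density ratio comes from the thresholds was not tested. A KO value counts only tags inside KO calls. KO tags in the rest of a WT region are not in the files used here, so a lower KO count can come from a shorter call, from fewer tags within the call, or from both.

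Pairs of like length had like tags. In the 1118 pairs of 1 to 1 whose lengths were within 1.25-fold, the median log2 ratio of tags was 0.06, and 8 were at least 1.5-fold lower in KO and 28 higher. Among the 924 members matched by a single KO peak of 500 bp, 921 were at least 1.5-fold lower in KO. Both groups were set by length, and their median log2 density ratios were 0.08 and 0.15. These counts of lower and higher members therefore follow largely from the choice. Where the KO region spanned several WT regions, 447 of 568 (78.7%) were higher, as the KO tags of the whole span were set against 1 WT region. With all regions linked by overlap summed as 1 group per library, a comparison added after the data were seen, the median over 5098 groups was -0.40.

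The direction of the tag ratio turned with the library that set the length window. Choosing 4512 KO regions of the same length with a WT partner gave a median log2 of 0.32, with 38.2% at least 1.5-fold higher in KO and 14.1% lower. Choosing 4138 pairs of 1 to 1 on the mean of both lengths, added after the data were seen, gave -0.06, with 24.7% higher and 29.6% lower. Scaling to tags in all called regions instead of library totals raised every log2 ratio by 0.32 and gave a median of -0.05 for the members, with 23.9% higher and 28.6% lower. Shared WT regions under 1 kb had a median of 0.18 and those of 4 kb and over -0.04.

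**Figure D2:**
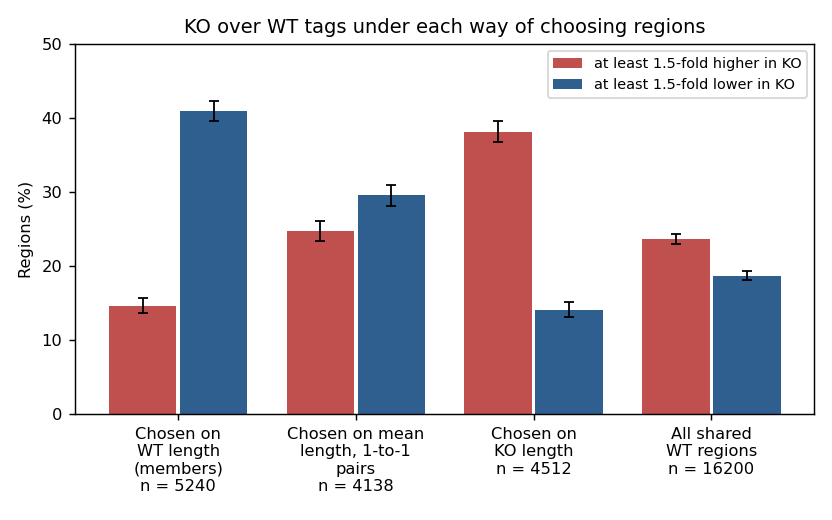
Percentage of regions whose tags were at least 1.5-fold higher (red) or lower (blue) in KO, for regions chosen on WT length, on mean length, on KO length, and for all shared WT regions. Bars start at 0 and error bars are exact 95% binomial intervals over regions; the lower share is the larger when WT sets the window, at 40.9%, and the higher share is the larger when KO sets it, at 38.2%.

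Position along genes was not part of the rule. Of the members, 3365 (64.2%, 95% interval 62.9 to 65.5) touched a protein-coding gene body, against 67.4% (65.5 to 69.2) of mid-length regions called in WT only. Among members that could be placed relative to gene starts, 270 of 4364 covered a start (6.19%, 5.49 to 6.94), against 2.97% (2.28 to 3.79) of the WT-only regions, 7.43% (5.82 to 9.33) of mid-length regions called in KO only and 14.5% (10.9 to 18.8) of WT regions of 4 kb and over. A further 9.49% lay inside a gene within 5 kb after a start, against 7.34% of WT-only regions, and 44.1% lay farther inside genes, against 52.9%. The members' interval for start cover lay above that of the WT-only regions and below that of the longest WT regions, and it overlapped that of the KO-only regions. No test of these differences was made.

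Start cover was also compared within classes of length. Members of 1000 to under 1250 bp covered a start in 5.27% (4.05 to 6.73), against 2.21% (1.34 to 3.43) of WT-only regions of that length. At 1500 to under 2000 bp the shares were 6.59% (5.20 to 8.22) and 2.80% (1.46 to 4.85). At 1250 to under 1500 bp they were 4.46% and 3.50%, and at 2000 to under 3000 bp 7.17% (5.56 to 9.06) and 4.84% (1.80 to 10.2), with overlapping intervals in both classes. Above 3000 bp 2 of only 16 WT-only regions covered a start (12.5%), against 9.66% of members, and the interval for the 16 ran from 1.55 to 38.3. Along genes of at least 10 kb divided into 5 equal parts, members were spread as 23.7%, 21.9%, 18.8%, 18.1% and 17.5% from start to end (n = 2309), and WT-only regions as 19.1%, 19.2%, 19.7%, 19.9% and 22.1% (n = 1213).

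Members that covered a gene start had the smallest median difference between the libraries, with a log2 ratio of -0.07, against -0.43 for members farther inside genes. Those covering a start were at least 1.5-fold lower in KO in 29.3% and higher in 21.1%. Within 5 kb after a start, 35.7% were lower and 21.0% higher, and farther inside genes 43.9% were lower and 12.5% higher. Genes under 30 kb had 35.9% of their members lower and 20.5% higher, and genes of 300 kb and over had 49.1% lower and 8.93% higher. With pairs chosen on mean length, the same contrast read 22.9% lower and 22.9% higher at starts, 25.3% lower and 34.3% higher within 5 kb after them, and 32.0% lower and 23.5% higher farther inside genes. Genes under 30 kb then had 23.9% lower and 31.6% higher, and genes of 300 kb and over 36.7% lower and 20.8% higher.

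**Figure D3:**
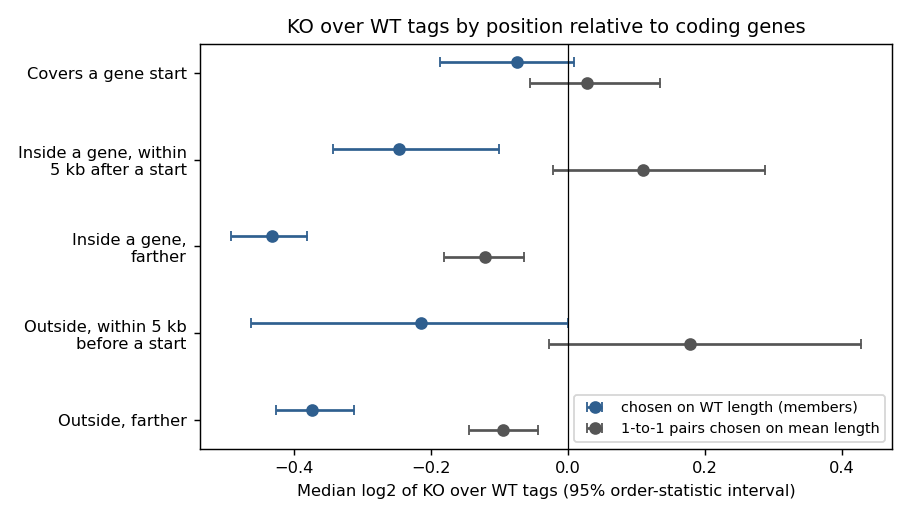
Median log2 of KO over WT tags by position relative to coding genes, for members (blue) and for pairs of 1 to 1 chosen on mean length (grey), with order-statistic 95% intervals over regions. In both choices the lowest median lies far inside genes; the members' medians are all below 0, while 3 of the 5 medians on mean length, those at and near gene starts, are above 0 with intervals that reach below it.

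The distance to broad domains was shorter for members than for WT-only regions at the median. Of the members, 23.0% (21.9 to 24.2) were within 50 kb of a WT region of 4 kb or more, against 8.95% (7.85 to 10.1) of WT-only regions. The median distance was 673 kb for members and 1287 kb for WT-only regions. Across chromosomes, the median log2 ratio of tags ranged from -0.60 on chromosome 13 (167 members) to -0.18 on chromosome 7 (349 members), and it was -0.46 on chromosome X (42 members).

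Of 21627 coding genes, 1942 (8.98%) held a member, 1279 of them exactly 1, and 21 held 10 or more. Among the members in coding genes, 1384 (41.1%) were at least 1.5-fold lower in KO and 488 (14.5%) higher, which is the background for the gene lists. Scaled to tags in all called regions instead, the medians of 6 lists that were below 0 turned above it, to 0.24 for T cell identity, 0.07 for interleukin 2 receptor signalling, 0.03 for lymphocyte transcription factors, 0.23 for T cell receptor signalling, 0.17 for effector lineages and 0.06 for the metabolic list. The 10 genes with the most members include Bach2 with 20, Ubac2 with 18, Rxra and Hivep3 with 14 each, Prkch and Zmiz1 with 13 each, and Ets1, Cyth1, Foxp1 and Inpp4b with 12 each. In Ubac2, a gene of the endoplasmic reticulum, 1 member was lower and 2 were higher. Its 2 higher members, of 16.3 and 39.3 WT tags, met the same KO region of 67.3 tags. In Rxra, the retinoid X receptor, 6 were lower and 2 higher, and in Hivep3, a zinc finger factor, 7 were lower and 1 higher. Prkch, a protein kinase C, had 2 lower and 5 higher, with a median log2 ratio of 0.25 that turned to -0.36 for its WT regions under 2000 bp. Of its higher members, those of 54.2 and 44.6 WT tags shared a KO region of 126.4 tags that spanned both. Zmiz1, a transcriptional coactivator, had 5 lower and 1 higher. Cyth1, an exchange factor of Arf GTPases, had 7 lower and 4 higher, with a median of -0.66 that turned to 0.64 for its WT regions of 2000 bp and over. All 4 higher members of Cyth1 met a KO region that spanned 2 WT regions. Inpp4b, a phosphoinositide phosphatase, had 2 lower and 3 higher. Other medians of these genes that turned sign included that of Zmiz1, to 0.29 with a reciprocal overlap of 50%. That of Foxp1 turned to -0.58 in the upper 50% by WT score, and that of Ets1 to -0.27 under 2000 bp. Scaled to tags in all called regions, those of Bach2, Ubac2 and Rxra turned from -0.13, -0.10 and -0.31 to 0.18, 0.22 and 0.01. The median of Bach2 also turned to 0.04 for WT regions of 2000 bp and over.

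**Figure D4:**
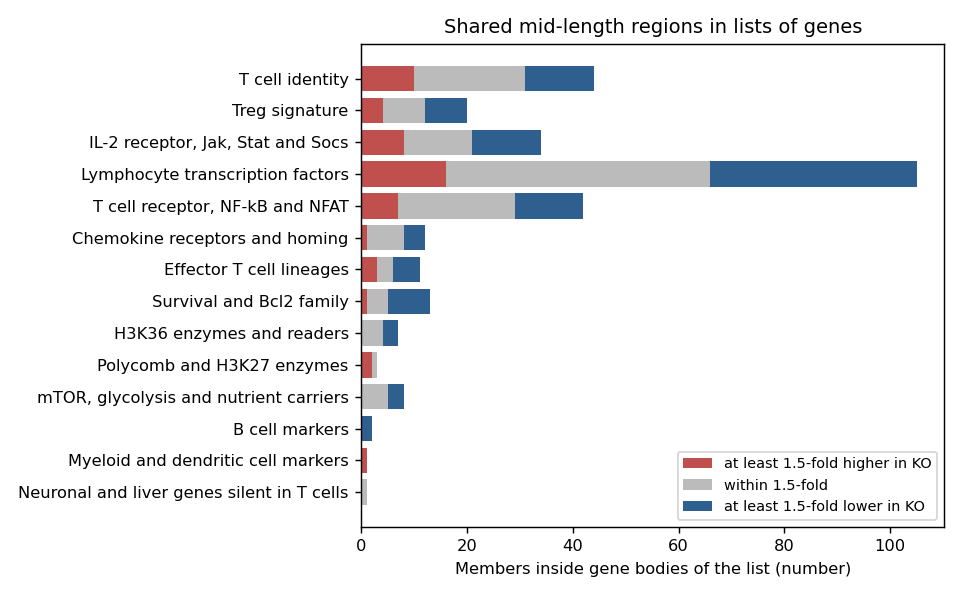
Number of shared mid-length regions inside the genes of each list, divided into those at least 1.5-fold higher in KO (red), within 1.5-fold (grey) and at least 1.5-fold lower in KO (blue). Lists without a member (ribosomal proteins, NK and CD8 markers, erythroid markers) are left out, and the lymphocyte transcription factors hold the most, 105.

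Members in Treg signature genes were lower in KO about as often as members in all coding genes. Of 24 genes, 12 held 20 members, of which 8 (40.0%) were at least 1.5-fold lower and 4 higher in KO, with a median log2 ratio of -0.36. That median was -0.04 with the other scaling and turned to 0.35 in the upper 50% of members by WT score. In Foxp3, the lineage-defining transcription factor, the region chrX:7583345-7584956 had 11.5 KO tags in 701 bp, against 26.5 WT tags in 1611 bp, a ratio of 0.434 (95% counting interval 0.235 to 0.781). Its density was 16.4 tags per kb in KO and 16.4 in WT. In Il2ra, the high-affinity interleukin 2 receptor chain, chr2:11650885-11652568 had 14.9 KO tags in 902 bp and 29.7 WT tags in 1683 bp, a ratio of 0.502 (0.289 to 0.840). The counts of both members were lower in KO, while their densities within the calls, which are not free of the calling, were alike. Foxp3 and Gpr83 each also held 1 mid-length region called in KO only and none called in WT only, and the whole list held 5 such KO-only and 4 WT-only regions.

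Ikzf2, encoding Helios, held 6 members with 33.8, 13.9, 13.2, 31.4, 7.44 and 24.0 KO tags, against 37.0, 16.3, 21.9, 42.0, 15.2 and 28.0 WT tags. All 6 were below WT, and 2 passed 1.5-fold. Gpr83, a G protein-coupled receptor, had 11.5 KO tags and 35.3 WT tags, and Ikzf4, encoding Eos, had 7.78 KO tags and 25.6 WT tags in a KO call of 500 bp. Other Treg genes ran the opposite way. Tnfrsf9, the costimulatory receptor 4-1BB, had 40.9 KO tags and 21.9 WT tags, with 23.2 KO tags per kb against 14.2 in WT. Lrrc32, encoding the TGF-beta anchor GARP, had 75.7 KO tags in a KO region that spanned 2 WT regions, against 31.2 WT tags. Itgae, the integrin CD103, had 1 member higher and 1 lower, as did Capg, an actin-capping protein. Ctla4, Cxcr4 and Nsd2 held no member.

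T cell identity genes were the list with the largest share of genes holding a member, 17 of 24, with 44 members, of which 13 were lower and 10 higher in KO. The median log2 ratio was -0.07 (-0.53 to 0.08), an interval that holds the -0.37 of all members in coding genes. In Bcl11b, a transcription factor that commits cells to the T lineage, 11 members held 55.8, 66.9 and 40.2 KO tags where they were at least 1.5-fold higher, against 24.5, 16.6 and 22.7 WT tags. The KO regions of 55.8 and 66.9 tags also reached into longer WT regions that are not members, of 102.6 and 92.1 tags. The 3 that were lower held 23.7, 16.9 and 15.6 KO tags, against 37.9, 34.4 and 28.6 WT tags, and the other 5 were within 1.5-fold. Members of either direction lay next to one another in the same gene. Cd247, the zeta chain of the T cell receptor complex, held 10 members, 2 lower and none higher.

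Cd5, an inhibitory T cell surface receptor, had 338.7 KO tags in a KO region of 12088 bp that joined 2 WT regions, against 57.4 WT tags in 3113 bp, and its density was 28.0 KO tags per kb against 18.4 in WT. Tcf7, a factor of naive and memory T cells, had 92.0 KO tags in a KO region of 4849 bp that joined 2 WT regions, against 29.4 WT tags in 1535 bp. Gata3, a factor of T helper cells and some Treg cells, had 46.3 KO tags and 25.4 WT tags, and Lat, the adaptor of T cell receptor signalling, had 63.5 KO tags and 39.6 WT tags. The coreceptor gene Cd4 had 56.1 KO tags and 53.0 WT tags, and the kinase gene Zap70 had 65.9 KO tags and 67.6 WT tags at its start. Thy1 was lower, with 7.10 KO tags and 19.5 WT tags.

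Lymphocyte transcription factors held the most members, 105 in 20 of 30 genes, of which 39 were lower and 16 higher in KO (median log2 -0.29). Bach2, a repressor that favours Treg and naive T cell states, had 12 of its 20 members below WT, 6 of them by at least 1.5-fold, and 4 at least 1.5-fold higher. The 4 higher members had 64.9, 155.2, 105.8 and 105.8 KO tags, against 35.6, 35.8, 45.2 and 19.2 WT tags, and every one met a KO region that spanned 2 WT regions, 1 of which was shared by the last pair. The 21 distinct KO partner regions of Bach2 held 795 tags in all, against 718 tags in its 20 WT members. Those KO partners also covered WT regions that are not members, of 14.0 and 70.5 tags, so the 2 sums cover different sequence. The other called regions of Bach2 held 339 KO tags and 543 WT tags. Ets1, a founding factor of its family and active in Treg cells, had 2 members lower and 4 higher, with a median log2 ratio of 0.37. Of the higher ones, those of 52.2, 21.3 and 29.1 WT tags met KO regions that spanned 2 WT regions. Foxp1, a factor of T cell quiescence, had 4 lower and 1 higher.

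**Figure D5:**
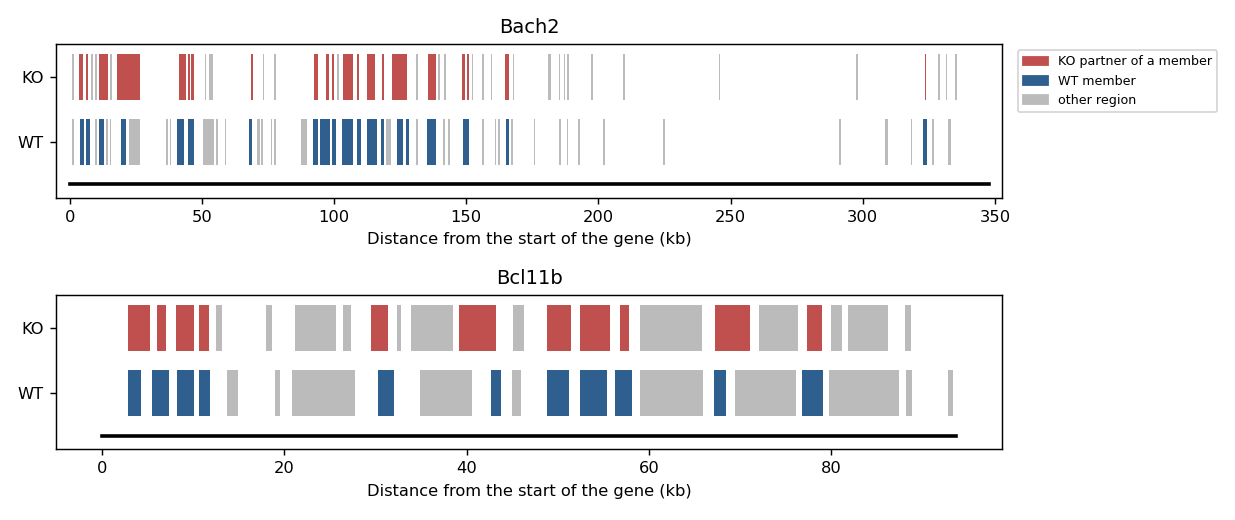
Called regions over Bach2 and Bcl11b, drawn to scale in kb from the start of each gene, with KO above WT; red marks KO partners, blue marks WT members, grey marks other called regions, and the black line is the gene body. Bach2 shows 20 WT members and 21 KO partners, most of them on the side of the gene start, and Bcl11b shows 11 of each, between longer regions in both libraries.

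Genes of interleukin 2 receptor signalling went in both directions. Of 22 genes for receptors, Jak kinases, Stat factors and Socs inhibitors, 15 held 34 members, 13 lower and 8 higher in KO (median log2 -0.25). The median was -0.85 for WT regions under 2000 bp and 0.12 for longer ones. Among the receptors, Il2rb had 128.1, 25.7, 49.0 and 93.3 KO tags, against 78.4, 28.3, 44.9 and 59.2 WT tags, with 2 members higher and none lower. Il6ra, the interleukin 6 receptor chain, had all 7 members below WT, 4 of them by at least 1.5-fold. Jak1, the kinase bound to these receptors, had 12.5, 8.45, 27.7 and 8.79 KO tags, against 24.2, 21.3, 41.7 and 19.8 WT tags, and all 4 were at least 1.5-fold lower. Jak1 also held 2 mid-length regions called in KO only and none called in WT only. At the neighbouring Stat5a and Stat5b genes, which encode the transcription factors of this pathway, 1 KO region of 8572 bp with 134.2 tags joined 3 WT regions. A member of Stat5a with 40.2 WT tags and one of Stat5b with 37.3 WT tags were among the 3. The inhibitor genes Socs1, with 63.9 KO tags and 42.0 WT tags, and Socs3, with 35.5 KO tags and 20.7 WT tags, were both higher.

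Genes of T cell receptor, NF-kB and NFAT signalling held 42 members in 15 of 28 genes, with 13 lower and 7 higher (median log2 -0.09, and 0.13 with a reciprocal overlap of 50%). Fyn, a Src family kinase, had 2 of 8 members lower and 1 higher. Dgkz, which removes diacylglycerol, had 2 of 5 lower and 1 higher, and Prkcq, the protein kinase C of the T cell synapse, had 1 of 4 lower and 1 higher. Nr4a1, an early-response nuclear receptor, had 74.7, 97.7 and 21.95 KO tags, against 46.9, 58.9 and 34.4 WT tags, so that 2 members were higher and 1 lower. Tnfaip3, the NF-kB inhibitor A20, had 11.2, 35.2 and 39.9 KO tags, against 21.9, 34.7 and 49.0 WT tags, and only the first was lower by 1.5-fold.

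Chemokine receptor and homing genes held 12 members in 9 of 20 genes, with 4 lower and 1 higher (median log2 0.01). Ccr6, a receptor of tissue-seeking T cells, had 17.6 and 11.5 KO tags, against 33.8 and 27.7 WT tags, and both were lower. Ccr7, the lymph node homing receptor, had 65.6 KO tags and 37.0 WT tags and was the 1 higher member. Cxcr5, the follicle homing receptor, had 18.3 and 75.7 KO tags, against 16.6 and 72.3 WT tags. Genes of effector lineages held 11 members in 6 of 20 genes, 5 lower and 3 higher, with a median of -0.15 that turned to 0.23 for WT regions of 2000 bp and over. Rora, a nuclear receptor of several lymphocyte types, held 6 of them, Lta, a cytokine, had 56.8 KO tags and 37.3 WT tags, and Il18r1, a receptor of type 1 responses, had 32.5 KO tags and 21.6 WT tags.

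Members in the list of survival genes and the Bcl2 family were mostly lower in KO, with 8 of 13 lower and 1 higher (median log2 -0.80). They lay in 5 of 12 genes, and 10 of the 13 lay in Bcl2 and Bcl2l1. The list also held 4 mid-length regions called in KO only, 2 each in Bcl2 and Bcl2l1, and 2 called in WT only, against 774 and 1663 over all coding genes. Bcl2, the founding inhibitor of apoptosis, had 10.5, 16.6, 11.2, 19.9, 22.3 and 7.78 KO tags, against 24.5, 18.7, 17.5, 40.8, 31.8 and 15.2 WT tags, all below WT and 4 of them by 1.5-fold. Bcl2l1, encoding Bcl-xL, had 8.11, 15.9, 45.3 and 22.3 KO tags, against 27.1, 29.1, 39.0 and 38.8 WT tags, and 3 were lower. Bcl2l11, encoding the death-promoting Bim, had 7.44 KO tags and 28.3 WT tags. The list thus held lower members in protective and in death-promoting genes, and its 1 higher member was that of Birc3, given above with its promoter. Densities in the 13 members had a median log2 ratio of 0.11, as over all members.

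Chromatin genes held few members, too few to compare the lists. Among 20 genes for H3K36 enzymes and readers, 4 held 7 members, with a median log2 ratio of -0.49. Of the 7 members, 3 were lower (42.9%, against 41.1% over all coding genes) and none higher (against 14.5%). Smyd2, a lysine methyltransferase, had 12.2 and 12.8 KO tags, against 34.4 and 23.3 WT tags. Dnmt3a, a DNA methyltransferase that reads H3K36 methylation, had 15.6 and 30.5 KO tags, against 21.9 and 49.5 WT tags, the second of which was lower. Kdm4b, a demethylase, had 13.9 and 20.6 KO tags, against 15.7 and 21.6 WT tags. In the Polycomb list, 2 of 17 genes held 3 members, none lower and 2 higher. Both higher ones were in Kdm6b, an H3K27 demethylase, with 34.8 and 36.2 KO tags, against 17.5 and 21.6 WT tags, and Cbx7, a Polycomb subunit, had 35.2 KO tags and 27.7 WT tags.

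Metabolic genes of mTOR signalling, glycolysis and nutrient carriage held 8 members in 6 of 22 genes, 3 lower and none higher (median log2 -0.26, and 0.15 in the upper 50% by WT score). Slc2a1, the glucose carrier GLUT1, had 48.3 KO tags and 37.0 WT tags, and the glycolytic genes Hk1 and Pfkl each had 1 of 2 members lower. No member lay in any of 26 genes for cytosolic ribosomal proteins, 8 NK and CD8 markers or 10 erythroid markers. Among 14 B cell markers, Bank1 had 8.11 KO tags and 24.5 WT tags, and Cd79b had 9.13 KO tags and 21.6 WT tags. Among 14 myeloid markers, Spi1 had 66.9 KO tags and 36.4 WT tags. Of 16 neuronal and liver genes, Cntnap2 held 1 member, with 31.1 KO tags and 23.6 WT tags.

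The densest members, ranked by tags per kb in both libraries, were mostly above WT in KO, with KO calls of about the WT length in most. On chromosome 2, chr2:98666335-98667496 had 579.1 KO tags and 514.3 WT tags, and chr2:98662127-98664082 had 398.6 KO tags and 299.0 WT tags, in a stretch known for high read counts in many sequencing assays and over 1000 kb from the nearest coding gene. Near Ly6c2, a surface antigen gene, chr15:75085298-75087160 had 289.4 KO tags and 224.4 WT tags in 1879 and 1862 bp. The other 7 lay between 38.9 and 98.4 KO tags and between 32.1 and 80.7 WT tags. They included members in Mepe, a gene of bone matrix, with 90.9 KO tags and 58.6 WT tags, in Zc3h7a, encoding a zinc finger protein, with 44.6 KO tags and 32.1 WT tags, and in Rab8b, a membrane transport GTPase, with 57.8 KO tags and 42.0 WT tags. Of the 10, 9 were above WT in KO, 1 of them, that in Mepe, by 1.5-fold, and the KO region in Zc3h7a was 763 bp, against 1313 bp in WT.

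The 10 members lowest in KO over WT tags were WT regions of 2789 to 3898 bp met by KO calls of 500 to 630 bp. The lowest, chr7:98521699-98525487, lay 19.9 kb from Lrrc32 and had 7.78 KO tags against 53.6 WT tags, a ratio of 0.145 (0.0754 to 0.277), while its density was 15.6 KO tags per kb and 14.1 WT tags per kb. In Ptp4a3, a tyrosine phosphatase gene, the values were 8.79 KO tags and 53.0 WT tags. In Ppp2r1b, a scaffold subunit of phosphatase 2A, they were 7.44 KO tags and 44.3 WT tags. The others in genes lay in Tns1, Krba1 and Sag. The low values thus went with short KO calls near the calling threshold.

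The 10 highest members all met KO regions of 10936 to 19240 bp that spanned 2 to 4 WT regions. In Ago2, the slicing Argonaute of RNA interference, a WT region of 1238 bp with 23.6 tags met a KO region of 19240 bp with 411.4 tags, a ratio of 17.4 (12.8 to 24.9). Its density was 21.4 KO tags per kb and 19.1 WT tags per kb. In Hook2, a microtubule linker gene, the KO region held 276.9 tags against 22.7 WT tags, and the density was 23.1 KO tags per kb against 13.5 in WT. The KO region that met members in and beside Trpm8, a cation channel gene, held 387.4 tags, against 38.2 and 42.0 WT tags. In Btg1, an antiproliferative gene of quiescent T cells, the KO region held 213.0 tags against 22.7 WT tags. Here a long KO call was set against 1 piece of the WT stretch, and the densities of the 10 lay between 18.8 and 24.1 KO tags per kb and between 13.5 and 26.1 WT tags per kb.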

How the data were processed

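The labels name an in situ ChIP library kit. The submitters' processing notes list the mm10 build and, with no version, HOMER, Bowtie2, Trim Galore, deepTools and Picard. Per the file headers, HOMER called regions in each library separately in histone style, and the command names no control. The signal is the deposited normalised tag count per region, scaled by the authors to 10000000 tags. The deposited score is in unscaled tags per 500 bp peak, as its lowest values of 12 in KO and 13 in WT equal the calling thresholds. The deposited clonal fold change, a ratio, was not used. A genome-wide change in the mark cannot be seen after scaling to equal totals. Tags are PCR reads without molecular identifiers, so intervals cover counting error only.

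Length was end minus start and coordinates are as deposited. Tags of several KO partners were summed, and a KO region that spans several WT regions was counted for each. Alternatives covered the overlap, length window, score, scaling, pairing and fold. Shares have exact Clopper-Pearson intervals, medians order-statistic intervals, and ratios of tags exact conditional binomial intervals. The size rule was 1.5-fold, and all shared WT regions gave the background. Gene bodies, promoters and microRNAs came from RefSeq tables of GRCm38.p6. Start classes were given only where every coding gene within 5 kb had a promoter entry, which left out 876 members, chromosome 18 among them. Gene strands came from the same table.

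Members, 17 gene lists of 324 genes and markers were chosen with earlier results of these data known. The rule for named genes took 6 set genes, the 10 genes with most members, the 10 densest, 10 lowest and 10 highest members (the last 2 groups among members with at least 20 tags in the higher library), up to 3 genes per list, the 3 members with most KO partners and 5 promoters. Other list genes in the text were picked after their values were seen. Region code was tested on simulated data. The tools were matplotlib 3.10.9, scipy 1.17.1, pandas 2.3.3 and numpy 2.4.6 in Python 3.11.15.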

Additional observations from a re-analysis of the deposited data

How the results depend on the processing

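The members' values were recomputed under 14 settings, 2 of them added after the data were seen, and 20 of 78 recomputed values moved by less than their interval. Values in each setting follow in the order of median log2 tag ratio, percent at least 1.5-fold lower in KO, percent higher, median log2 density ratio, median log2 length ratio and percent of member base pairs inside KO regions, leaving out those that did not move. With a reciprocal overlap of 50% they were -0.059, 14.8, 11.6, 0.082, -0.14 and 79.4, over 2475 members. For WT regions of 2000 to under 4000 bp, 1485 in number, they were -0.28, 37.0, 0.14, -0.39 and 62.4. For 1000 to under 2000 bp they were -0.40, 42.5, 0.095 and 59.3. In the upper 50% of the WT score, 2620 members, they were -0.33, 39.0, 0.071, -0.39 and 63.0. Chosen by KO length they were 0.32, 14.1, 38.2, 0.057, 0.25 and 65.1, so both the tag and the length ratio reversed; which library sets the window is the construction of that choice. In pairs of 1 to 1 they were -0.52, 47.1, 7.15, -0.64 and 58.5. With only the KO region of largest overlap they were -0.45, 44.8 and -0.58. Scaled to tags in all regions they were -0.047, 28.6, 23.9 and 0.43, and with shared 4 kb domains at 0 they were -0.33, 39.1 and 0.15. A 2-fold rule gave 24.96 percent lower and 7.46 percent higher. Joined groups gave -0.40, 42.3, 8.04 and -0.53, and pairs on mean length -0.056, 29.6, 24.7, 0.089 and -0.13. The share touching a coding gene was 71.9 percent with 5 kb flanks, 65.7 percent at 2000 to under 4000 bp and 62.9 percent in the upper 50% of the score. Leaving out chromosome X moved none of these values beyond its interval. Of 205 recomputed medians of lists and genes, 178 kept their sign, 24 moved, and that of Cyth1 turned to 0.64 for WT regions of 2000 to under 4000 bp, where fewer members enter. Where it is not stated, the cause was not tested. No paired analysis was possible because each genotype has 1 library. Depth limits short calls: a KO peak at the threshold of 12 tags can miss signal just below it.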
